A study of Homo sapiens with 2 samples.

Results

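Immediate-early genes are the genes a cell transcribes within minutes of a growth factor, antigen or stress signal, before any new protein is made. The 10 described here are ZFP36, IER2, JUN, JUNB, JUND, FOS, FOSB, EGR1, DUSP1 and KLF2, taken by their symbols from the 32738 genes of the deposited matrices. Each symbol named exactly 1 row in both libraries. A gene was counted as measured when it reached 10 CPM, the UMIs of a gene per 1000000 UMIs of the library, in at least 1 library, which 5954 genes and 8 of the 10 members did. EGR1 and KLF2 stayed below that floor in both libraries.

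The cells were of Nalm-6, an established line from a human acute lymphoblastic leukemia of B-cell precursors, carrying a Tet-On construct that doxycycline switches on. One library came from cells with the ETV6-RUNX1 fusion (also called TEL-AML1), the other from cells with luciferase (LUC control), and both had received 500 ng/ml doxycycline for 24 h. Dead cells had been removed with magnetic beads before droplet capture. The labels do not say whether either line was grown from a single clone, and with 1 library per construct every difference below is between these 2 libraries. Intervals are 95% and cover counting error only.

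The ETV6-RUNX1 library kept 2267 of 2503 barcodes and the LUC control library 1870 of 2203, a barcode being kept at 1000 or more genes and no more than 10% mitochondrially encoded (MT) UMIs. Median depth was 19219 and 22535.5 UMIs per cell, from 43941536 and 42762188 UMIs in all. The libraries shared 7 barcode strings among kept cells. All 9 B precursor markers that had a row were measured, led by IGLL1, with 3147 and 4172 CPM summed. Defining markers of T cells (CD3D, CD3E), myeloid cells (S100A8, S100A9, ITGAM) and red cells (HBB, HBA1) had no UMI in kept cells of either library. In all, 3 of 7 T and NK, 3 of 9 myeloid and 7 of 9 erythroid and megakaryocyte markers were at 0, and those lists summed to 4.71, 13.3 and 0.0910 CPM with ETV6-RUNX1 and 6.27, 12.1 and 0.327 CPM in the LUC control library. Most of that was NKG7 and CST3. Of other lists, PDGFRA (68.1 and 66.4 CPM) and EGFL7 (17.1 and 20.4 CPM) were measured. ETV6, part of the induced fusion, had 10.1 CPM in the ETV6-RUNX1 library and 6.95 CPM in the LUC control library, and RUNX1 had 33.8 and 34.0 CPM, with reads of the fusion and of the native genes counted together.

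The members act in a short circuit. FOS and FOSB proteins pair with JUN, JUNB or JUND to form AP-1, a dimeric transcription factor that binds TGANTCA sites, and EGR1 is a zinc-finger factor of the same first wave. DUSP1 and ZFP36 switch the response off: DUSP1 is a phosphatase that inactivates the MAP kinases which induce these genes, and ZFP36 binds AU-rich elements and sends short-lived messages to the CCR4-NOT deadenylase. IER2 is a short-lived nuclear protein, and KLF2 is a transcription factor known for keeping lymphocytes quiescent. Most of their messages carry instability elements, so that steady levels follow recent transcription closely.

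Their start sites are shown because 5 of them varied together from cell to cell and JUND did so more weakly, as described further on. The RefSeq promoter table (GRCh38.p14) held all 10, as 250 bases before to 50 bases after the start. Below are the 250 bases before the start of FOS, JUN, FOSB and DUSP1, which varied together, of JUND for contrast, and of EGR1, the only member with a CArG box in this window. Each is written 5′ to 3′ along the gene. Capitals mark matches, on either strand, to the CArG box (bound by serum response factor), TGACGTCA (the full cyclic AMP response element, bound by CREB and ATF proteins), TGACG (its core, which the full element contains), TGACATCA (the JUN-ATF2 element), TGANTCA (AP-1) and TATAAA.
FOS, chr14:75278578-75278827, plus strand: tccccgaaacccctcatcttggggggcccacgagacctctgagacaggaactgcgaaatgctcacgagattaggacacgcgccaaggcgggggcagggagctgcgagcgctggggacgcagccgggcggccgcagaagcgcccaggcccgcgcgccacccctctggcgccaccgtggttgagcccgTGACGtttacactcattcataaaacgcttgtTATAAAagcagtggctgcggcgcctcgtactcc
JUN, chr1:58784048-58784297, minus strand: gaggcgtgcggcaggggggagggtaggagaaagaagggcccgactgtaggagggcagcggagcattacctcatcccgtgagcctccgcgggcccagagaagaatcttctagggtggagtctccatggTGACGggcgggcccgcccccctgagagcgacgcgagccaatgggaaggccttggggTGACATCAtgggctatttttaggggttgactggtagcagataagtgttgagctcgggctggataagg
FOSB, chr19:45467746-45467995, plus strand: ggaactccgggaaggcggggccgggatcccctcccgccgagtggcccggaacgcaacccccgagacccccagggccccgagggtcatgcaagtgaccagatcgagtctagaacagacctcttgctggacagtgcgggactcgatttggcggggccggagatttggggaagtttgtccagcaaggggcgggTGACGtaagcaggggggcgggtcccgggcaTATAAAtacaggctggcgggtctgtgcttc
DUSP1, chr5:172771196-172771445, minus strand: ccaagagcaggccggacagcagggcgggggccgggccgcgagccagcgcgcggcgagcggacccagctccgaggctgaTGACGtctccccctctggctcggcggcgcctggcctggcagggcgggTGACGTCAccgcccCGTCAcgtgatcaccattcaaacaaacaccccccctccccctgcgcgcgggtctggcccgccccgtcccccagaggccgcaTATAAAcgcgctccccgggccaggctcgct
JUND, chr19:18281623-18281872, minus strand: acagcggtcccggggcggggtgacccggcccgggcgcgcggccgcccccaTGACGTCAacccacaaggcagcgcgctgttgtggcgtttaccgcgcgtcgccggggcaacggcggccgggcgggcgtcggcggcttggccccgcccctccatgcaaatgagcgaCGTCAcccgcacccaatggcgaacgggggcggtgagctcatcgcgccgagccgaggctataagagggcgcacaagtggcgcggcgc
EGR1, chr5:138465229-138465478, plus strand: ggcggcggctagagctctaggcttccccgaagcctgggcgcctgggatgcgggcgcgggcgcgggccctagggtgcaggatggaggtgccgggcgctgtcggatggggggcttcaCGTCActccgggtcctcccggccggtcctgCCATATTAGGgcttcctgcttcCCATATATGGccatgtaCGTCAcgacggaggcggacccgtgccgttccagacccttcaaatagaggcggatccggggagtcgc

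The core TGACG was in the 300 bases of 8 of the 10 members, all but ZFP36 and KLF2, and in 24.5% of 34796 promoters of the same length. TATAAA was in 4 members (DUSP1, FOS, FOSB, JUNB) and in 11.6% of all promoters, in each of the 4 members between 30 and 33 bases before the start. The full TGACGTCA was in DUSP1 and JUND and in 1.84% of promoters, and TGACATCA was in JUN and in 2.60%. EGR1 held 2 CArG boxes, which 1.30% of promoters held. A CArG box farther from the start, in FOS or any other member, lies outside what was searched. TGANTCA was in none of the 10 windows and in 7.73% of all promoters. The EGR-type sequence GCGNGGGCG was in EGR1 and KLF2 and in 9.43% of promoters. Member promoters had a median GC content of 70.3%, against 58.7% over the table. These are matches of letters in a short window, and no binding was measured in the series.

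In the genome, 6 members (ZFP36, IER2, JUNB, JUND, FOSB, KLF2) lie on chromosome 19, EGR1 and DUSP1 on chromosome 5, FOS on chromosome 14 and JUN on chromosome 1. JUN, JUNB and JUND have 1 exon in the GENCODE 29 annotation. An opposite-strand gene overlaps JUNB (HOOK2, 15.2 CPM in the ETV6-RUNX1 and 14.4 CPM in the LUC control library) and FOSB (ERCC1, 60.4 and 65.2 CPM). The sources used here do not say how the counting treated strand, so reads of these pairs may not be separated.

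All 10 members were transcribed in both libraries, and together they made up nearly the same share of messages in each. Summed, they had 29034 UMIs or 661 CPM in the ETV6-RUNX1 library and 28736 UMIs or 672 CPM in the LUC control library, a log2 ratio of -0.02 (-0.048 to -0.001). That difference is as small as the choice of scaling: the ratio was 0.02 with TMM normalization. Every log2 ratio between the libraries below shifts by the same 0.04 under it. No measured member differed by 1.5-fold or more in either direction. Over all measured genes 0.185% were that much higher and 0.655% that much lower. The median log2 ratio of the 8 measured members was 0.06, beside -0.04 over all 5954 genes. It was -0.02 with the floor at 1 CPM, where EGR1 and KLF2 count as measured. With 1 library per construct no test was possible.

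The 5 members that encode AP-1 subunits had slightly higher values with ETV6-RUNX1. Among the FOS proteins' genes, FOS was the most abundant member, at 159.6 CPM (155.9 to 163.4) in the ETV6-RUNX1 and 150.8 CPM (147.2 to 154.5) in the LUC control library, a log2 ratio of 0.08 (0.03 to 0.13). FOSB had 86.1 and 76.4 CPM (log2 ratio 0.17, 0.10 to 0.24). Both intervals lay above 0, and both ratios were far inside 1.5-fold.

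Of the JUN genes, JUN had 125.7 and 121.8 CPM, and its interval of the log2 ratio included 0 (0.04, -0.01 to 0.10). JUNB had 28.0 and 24.7 CPM (log2 ratio 0.18, 0.06 to 0.30). JUND had 60.4 and 54.8 CPM (0.14, 0.06 to 0.22). So all 5 AP-1 genes among the members had a ratio above 0, which 36.2% of measured genes had, and the size ran from 0.04 to 0.18.

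The remaining 3 measured members were lower with ETV6-RUNX1. DUSP1, the MAP kinase phosphatase, had 115.5 CPM (112.3 to 118.7) in the ETV6-RUNX1 library against 131.9 CPM (128.5 to 135.4) in the LUC control library, a log2 ratio of -0.19 (-0.25 to -0.14). IER2 had 64.8 against 84.1 CPM (-0.38, -0.45 to -0.31). ZFP36, the message-decay factor, had 11.0 CPM (10.0 to 12.0) against 15.8 CPM (14.6 to 17.0), a log2 ratio of -0.52 (-0.69 to -0.35). This was the lowest ratio among the measured members, 1.43-fold lower, and its interval reached past 1.5-fold.

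The pair below the floor rested on few UMIs. KLF2 had 116 UMIs (2.64 CPM) in the ETV6-RUNX1 library and 172 UMIs (4.02 CPM) in the LUC control library, a log2 ratio of -0.61 (-0.96 to -0.26), which was -0.98 in thinned cells. EGR1 had 312 and 322 UMIs (7.10 and 7.53 CPM), and its interval included 0 (-0.31 to 0.14). The direction of ZFP36, IER2, DUSP1 and KLF2 (lower) and of the 5 AP-1 members (higher) was the same in each of 9 other scalings, filters and cell selections. JUN did not keep its direction in every subset of cells described further on.

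**Figure D1:**
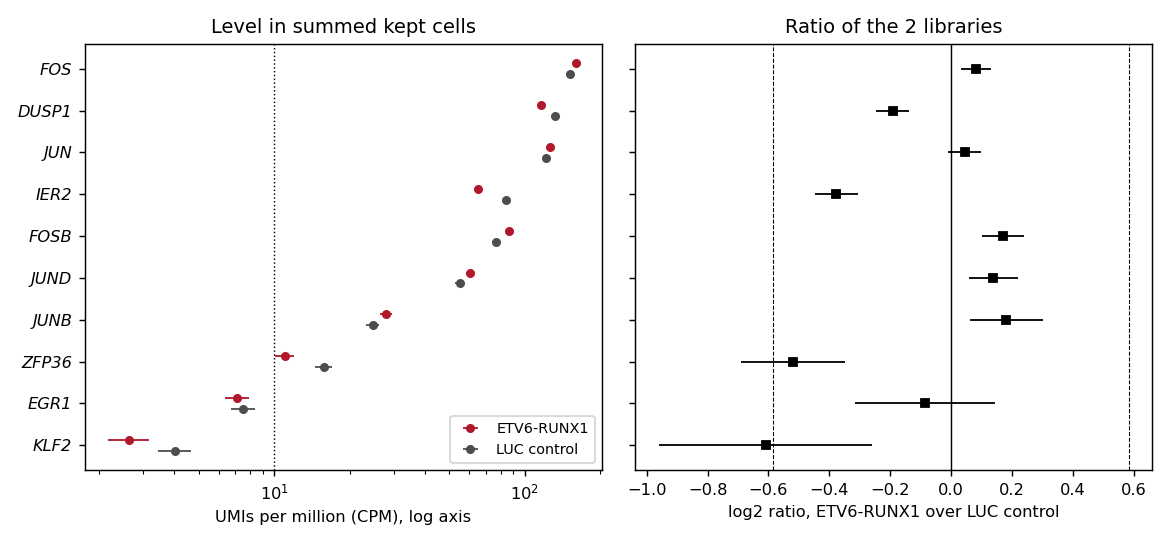
Level of each member in CPM on a log axis (left) and log2 ratio of the ETV6-RUNX1 over the LUC control library (right), with 95% counting intervals; 1 library each. The dotted line is the floor of 10 CPM and the dashed lines mark 1.5-fold. ZFP36, IER2, DUSP1 and KLF2 lie left of 0, and FOS, FOSB, JUNB and JUND right of it.

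The order of the members was nearly shared. In each library it ran from FOS at the top to JUNB, ZFP36, EGR1 and KLF2 at the bottom, over a range of 2.64 to 159.6 CPM with ETV6-RUNX1. A UMI marks a captured poly-A transcript rather than a stretch of it, so these levels were not divided by gene length. JUN was above DUSP1 with ETV6-RUNX1 (125.7 and 115.5 CPM) and below it in the LUC control library (121.8 and 131.9 CPM). FOSB was likewise above IER2 with ETV6-RUNX1 and below it in the LUC control library. The intervals of neighbours in the order overlapped for IER2 and JUND with ETV6-RUNX1 (64.8 and 60.4 CPM) and for no other pair in either library.

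Most cells held some of these messages, and few held many. Each cell was thinned at random to 8700 UMIs so that the libraries' depths matched, which left 2043 ETV6-RUNX1 and 1786 LUC control cells and dropped 224 and 84 shallower ones. At that depth a cell had a UMI of 3.12 ± 1.75 (SD over cells) of the 10 members with ETV6-RUNX1 and of 3.13 ± 1.85 in the LUC control library. No member was detected in 5.48% and 6.16% of cells, and 5 or more in 21.4% (19.7 to 23.3) and 23.6% (21.7 to 25.7). The summed UMIs per cell ran from 0 through a median of 4 to a highest cell of 40 with ETV6-RUNX1 and 57 in the LUC control library.

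FOS had a UMI in 55.1% (52.9 to 57.2) of thinned ETV6-RUNX1 cells and in 49.7% (47.3 to 52.0) of LUC control cells, against 70.7% and 69.6% before thinning. IER2 had one in 36.3% (34.2 to 38.4) and 43.0% (40.7 to 45.3), against 53.0% and 65.2% before thinning. ZFP36 had one in 8.08% (6.93 to 9.34) and 10.6% (9.19 to 12.1), against 17.4% and 25.1%. For these 3 genes the shares ran in the same direction as the CPM. For JUN they did not: its share was 47.8% and 48.2%, with overlapping intervals, so no order is read from it. The other measured members lay between 17.5% (JUNB, LUC control) and 55.7% (DUSP1, LUC control) after thinning. Both libraries are of 1 cell line, so no cell type that lacks these genes was at hand to show the background that free RNA gives.

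The messages were spread unevenly over cells. Unevenness is given as overdispersion, the variance beyond counting noise divided by the squared mean, which is 0 for pure counting noise. It was 1.71 for JUN with ETV6-RUNX1 and 2.01 in the LUC control library, and 1.23 and 1.80 for FOS. The median over measured genes was 0.118 and 0.0925. FOS had 5 or more UMIs in 8.08% and 6.55% of cells, and its highest cells had 16 and 22 UMIs. JUN reached 23 and 25 UMIs in a cell while its median was 0 in both libraries.

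JUNB (1.22 and 2.19), IER2 (1.36 and 1.21) and ZFP36 (1.28 and 1.89) were uneven too. Overdispersion was above 1 in 2.59% of measured genes with ETV6-RUNX1 and 2.28% in the LUC control library, and in 5 of the 8 measured members in each (FOS, JUN, JUNB, IER2, ZFP36). FOSB (0.73 and 0.84) and DUSP1 (0.78 and 0.86) came between. JUND stood apart from its relatives at 0.22 and 0.31. Its mean level was nonetheless near that of IER2 with ETV6-RUNX1 (60.4 and 64.8 CPM). In the LUC control library it was lower (54.8 and 84.1 CPM). After thinning no cell had more than 6 UMIs of JUND. The highest cells of JUNB, at a lower mean level, had 5 and 7 UMIs.

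**Figure D2:**
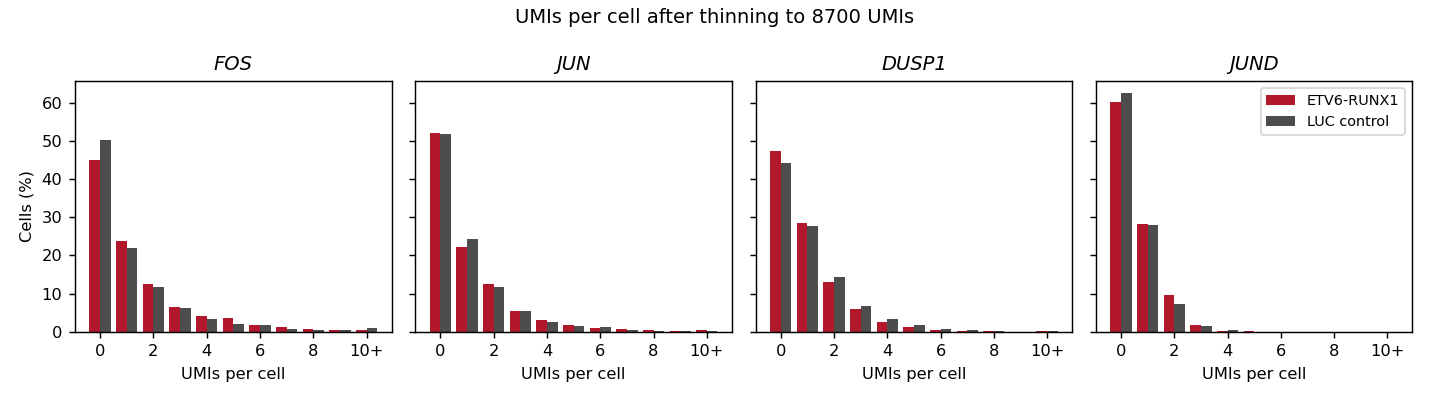
Share of cells (percent) by UMIs per cell of FOS, JUN, DUSP1 and JUND after thinning to 8700 UMIs, in 2043 ETV6-RUNX1 (red) and 1786 LUC control (grey) cells; the last bar holds 10 or more. FOS and JUN have long tails, up to 25 UMIs for JUN, while no cell has more than 6 UMIs of JUND.

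The same cells tended to be high for several members. Co-variation is given as Pearson's r of log2(UMIs + 1) across thinned cells, as a description, since the cells of a library share its depth and handling. Over the 28 pairs of measured members the median r was 0.128 with ETV6-RUNX1 and 0.158 in the LUC control library, while over all 17722081 pairs of measured genes it was 0.0021 and 0.0017. An r above 0.2 was found in 7 and 10 of the 28 member pairs, and in 0.0245% and 0.0175% of all pairs. Abundant genes reach a high r more easily. Among the 1890 genes at 50 CPM or more, 0.219% and 0.155% of pairs passed 0.2, and 7 and 9 of the 15 pairs of the 6 members at that level did.

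FOS and JUN, the classical AP-1 pair, had the highest r, 0.37 with ETV6-RUNX1 and 0.38 in the LUC control library. Among ETV6-RUNX1 cells with a JUN UMI 68.1% had a FOS UMI, and among cells without one 43.2% did. The corresponding LUC control shares were 63.0% and 37.3%. FOS with FOSB reached 0.31 and 0.32, FOS with DUSP1 0.30 and 0.36, and FOS with IER2 0.26 and 0.33. DUSP1, whose protein turns off the kinases that induce FOS, had a UMI in 59.9% of ETV6-RUNX1 cells with FOS and in 43.6% of those without, and in 67.4% and 44.2% of LUC control cells.

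For each of FOS, JUN, FOSB, DUSP1 and IER2, the gene with the highest r among all other measured genes, taking the lower of the 2 libraries, was another of these 5. FOS was the nearest gene to JUN, FOSB, DUSP1, IER2 and ZFP36. By the same rule JUNB was nearest to IER2 (0.15 and 0.16). Next came FOS (0.15 and 0.22), whose r with JUNB was above that of IER2 in the LUC control library. ZFP36 gave low values throughout, with FOS nearest at 0.12 and 0.13, and at its low counts a weak r is no finding.

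JUND varied with them more weakly. Its r with the other members ran from -0.02 (with JUNB, ETV6-RUNX1) to 0.16 (with FOS, LUC control), and the gene nearest to it was the histone gene HIST1H4C (0.09 and 0.16), followed by PPP1R15A. In the promoters shown above JUND has the TGACG core, as FOS, JUN, FOSB and DUSP1 do, and it has the full TGACGTCA, as DUSP1 does.

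**Figure D3:**
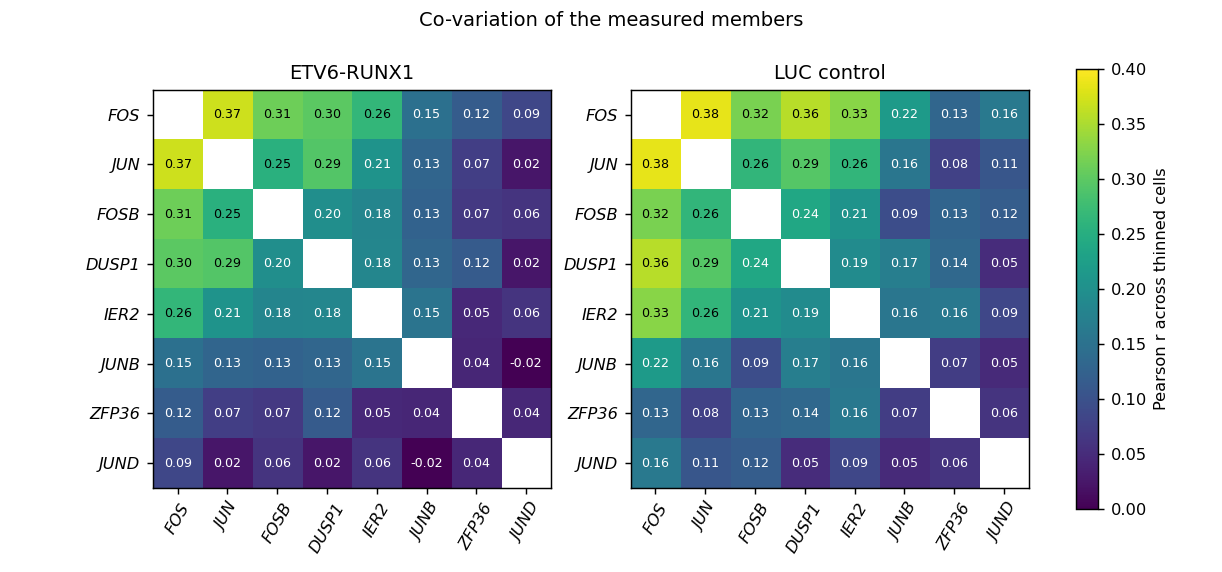
Pearson's r of log2(UMIs + 1) for each pair of the 8 measured members, across 2043 ETV6-RUNX1 cells (left) and 1786 LUC control cells (right) thinned to 8700 UMIs; the colour runs from 0 to 0.4. FOS, JUN, FOSB, DUSP1 and IER2 form the bright corner, led by FOS with JUN at 0.37 and 0.38, and the JUND values run from -0.02 to 0.16.

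Co-variation was also computed within subsets of cells. FOS with JUN had an r between 0.30 and 0.41 in cells of each called phase, and between 0.32 and 0.40 in cells of each tertile of the MT share, in both libraries. The median over the 28 pairs ran from 0.07 (ETV6-RUNX1, highest MT tertile) to 0.19 (LUC control, G1). The lowest r among the 10 pairs of FOS, JUN, FOSB, DUSP1 and IER2 fell to 0.04 in ETV6-RUNX1 cells called G1 and to 0.05 in the highest MT tertile of that library.

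Outside the members, the 10 measured genes most like their sum were TRA2B, PTMA, PPP1R15A, ID3, HIST1H4C, HSP90AA1, TUBA1A, H3F3B, CCNL1 and TUBB. Their r with the sum ran from 0.11 to 0.20, where 95% of the 5946 measured non-members lay below 0.055 and 0.058. TRA2B, a splicing regulator, had 0.18 in both libraries. PPP1R15A (GADD34), a stress-induced phosphatase subunit, had 0.18 and 0.16, and CCNL1, a cyclin of the splicing machinery, had 0.20 and 0.13. ID3, an inhibitor of E proteins, had 0.16 in both, and it was itself lower with ETV6-RUNX1 (145 and 211 CPM, log2 ratio -0.54).

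The members' summed level was higher in cells called S or G2/M than in cells called G1. Phases were called from published S and G2/M gene lists, none of which holds a member, on thinned cells of both libraries together. This put 21.4% of ETV6-RUNX1 and 18.6% of LUC control cells in G1, 27.7% and 32.8% in S, and 50.9% and 48.6% in G2/M. The calls are ranges of a score rather than distinct states: 45.3% and 47.8% of cells lay within 0.05 of a threshold, and G1 fell to 12.3% and 8.51% when the scores' control genes were drawn from all genes. Median depth was 17247.5 UMIs in G1 and 21950 in G2/M with ETV6-RUNX1, and 18713.5 and 25488.5 in the LUC control library. The part of depth and free RNA in the phase values was not tested.

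Summed over members, the level was 546 CPM in G1, 669 in S and 693 in G2/M with ETV6-RUNX1, and 571, 682 and 694 CPM in the LUC control library. The log2 ratio of G2/M over G1 was 0.34 (0.29 to 0.39) and 0.28 (0.23 to 0.33), where the median measured gene had 0.09 and 0.10. It stayed above 0 in all 8 other ways of calling or counting, between 0.24 and 0.52 for ETV6-RUNX1 and between 0.13 and 0.56 for the LUC control. The lowest LUC control value came from cells at the outer ends of the scores, where the median measured gene had 0.12. In that setting 6 measured members were above 0, and the summed ratio was close to the median gene. In the main calls, 7 of the 8 measured members had a ratio above 0 in each library. Of all measured genes 67.0% and 70.0% did, so the count itself is close to the background.

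FOS had 134.7 CPM in G1, 167.4 in S and 164.0 in G2/M with ETV6-RUNX1, and 116.1, 160.3 and 155.6 CPM in the LUC control library. JUN reached its highest level in G2/M in both libraries, 138.4 CPM against 105.2 in G1 with ETV6-RUNX1 and 129.7 against 106.8 CPM in the LUC control library. FOSB (log2 ratio of G2/M over G1 0.42 and 0.30) and DUSP1 (0.37 and 0.23) had ratios of the same size. JUNB was the exception, at -0.15 (-0.37 to 0.08) and -0.01 (-0.27 to 0.25). JUND had 0.10 and 0.17, and both intervals included 0.

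IER2 had the highest ratio of a measured member, 0.67 (0.51 to 0.85) with ETV6-RUNX1, and a lower one of 0.28 (0.13 to 0.43) in the LUC control library. It was the only measured member at least 1.5-fold higher in G2/M than in G1, in the ETV6-RUNX1 library, and none was in the LUC control library, where the shares of all measured genes were 6.52% and 5.36%. These calls depend on how phases are called: over 6 other settings 0 to 3 members passed in each library. With phases called without thinning FOS (0.67 and 0.74) and FOSB (0.65 and 0.71) passed in both, and with control genes from all genes FOS (0.94), FOSB (0.96) and IER2 (0.63) passed in the LUC control library. EGR1, below the floor, had 31 UMIs in G1 and 169 in G2/M with ETV6-RUNX1 (3.99 and 7.13 CPM), and 28 and 157 UMIs (4.27 and 6.84 CPM) in the LUC control library. KLF2 had 22 and 24 UMIs in G1, too few to place.

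**Figure D4:**
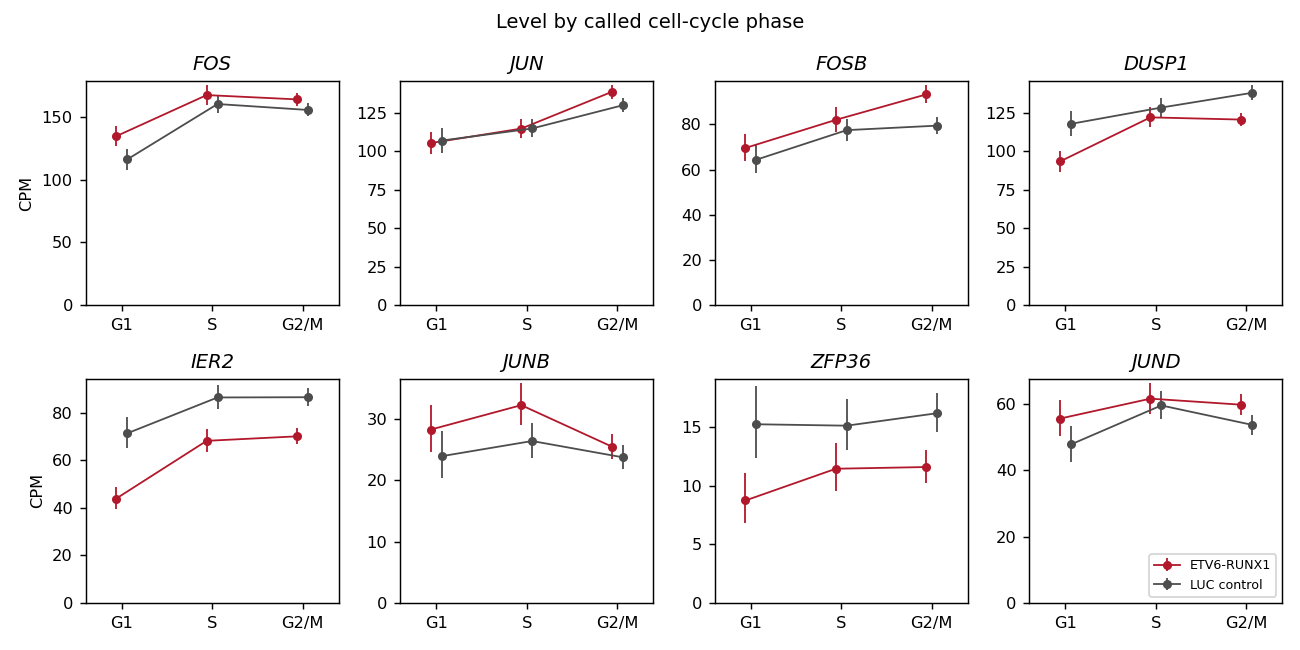
CPM of each measured member in cells called G1, S and G2/M, with 95% counting intervals, in the ETV6-RUNX1 (red) and LUC control (grey) library; each axis starts at 0. FOS and DUSP1 are lowest in G1 in both libraries, JUNB is not, and IER2 is lower with ETV6-RUNX1 in all 3 phases.

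The difference between the libraries was also read within phases. IER2 had 43.9 CPM (341 UMIs) in ETV6-RUNX1 cells called G1 and 71.3 CPM (467 UMIs) in LUC control cells called G1, a log2 ratio of -0.70 (-0.91 to -0.50). In S its ratio was -0.34 (-0.48 to -0.21) and in G2/M -0.30 (-0.40 to -0.21). IER2 was thus lower with ETV6-RUNX1 in every phase, and whether the G1 ratio differs from the others was not tested. Its G1 ratio was -0.56 with phases called from unthinned cells and -0.57 with control genes from all genes, both within 1.5-fold. It passed 1.5-fold with thinned UMIs (-0.59), with control genes in at least 10 cells (-0.76) and in cells more than 0.05 from a threshold (-0.87).

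ZFP36 had 68 UMIs (8.75 CPM) in G1 with ETV6-RUNX1 and 100 UMIs (15.3 CPM) in the LUC control library, a log2 ratio of -0.80 (-1.27 to -0.34). That value rested on few UMIs: it was -0.17 (-0.73 to 0.39) with phases called from unthinned cells. It was -0.26 with thinned UMIs and -0.48 in cells more than 0.05 from a threshold. With control genes from all genes it was -0.61, and with control genes in at least 10 cells -0.67. Of these settings only the last had an interval below 0 (-1.21 to -0.14). In the main calls, IER2 and ZFP36 were the 2 measured members at least 1.5-fold lower in G1, a size that 2.02% of measured genes had. DUSP1 was lower in G1 (-0.34), S (-0.07) and G2/M (-0.19), and its interval in S included 0. FOS was higher in each phase, from 0.06 in S to 0.21 in G1.

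The summed member level was lower in cells with a higher mitochondrial share. Kept cells of each library were split into tertiles by that share, with medians of 3.56, 4.51 and 5.53% for ETV6-RUNX1 and 3.53, 4.36 and 5.31% for the LUC control. From the lowest to the highest tertile the summed level was 801, 658 and 518 CPM with ETV6-RUNX1, and 806, 662 and 543 CPM in the LUC control library. The MT medians of the outer tertiles lay less than 2 percentage points apart.

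JUN went from 166.9 CPM in the lowest to 85.5 CPM in the highest tertile with ETV6-RUNX1, and from 158.7 to 92.0 CPM in the LUC control library. FOS went from 205.0 to 117.1 CPM and from 188.6 to 106.0 CPM. IER2 went from 81.3 to 47.8 CPM and from 105.5 to 66.4 CPM. JUND moved the other way, from 56.1 to 63.4 CPM and from 47.7 to 61.1 CPM. The difference between the libraries kept its direction in each tertile for IER2 (-0.38, -0.31 and -0.47) and DUSP1 (-0.25, -0.13 and -0.18). It also did for ZFP36, at an uneven size (-0.45, -0.88 and -0.11). Among the genes higher with ETV6-RUNX1 it did for JUNB (0.09, 0.30 and 0.18), JUND (0.23, 0.14 and 0.05) and FOSB (0.27, 0.20 and 0.01). For JUN it was 0.07, 0.11 and -0.11, and for FOS 0.12, 0.00 and 0.14. By tertiles of depth the summed level was 650, 628 and 687 CPM with ETV6-RUNX1 and 624, 664 and 698 CPM in the LUC control library, from shallow to deep. JUND again ran the other way, from 75.6 to 54.9 CPM and from 60.4 to 50.7 CPM. JUNB fell with depth too, from 31.4 to 26.1 CPM with ETV6-RUNX1. In the LUC control library it went from 25.9 to 23.1 CPM, with overlapping intervals. From shallow to deep, the log2 ratio between the libraries was 0.32, 0.01 and 0.04 for FOS and -0.69, -0.54 and -0.45 for ZFP36. For JUN it was -0.03, -0.01 and 0.10. IER2, DUSP1, FOSB, JUNB and JUND kept their direction in each tertile of depth. What the MT share and depth stand for in these cells was not tested.

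**Figure D5:**
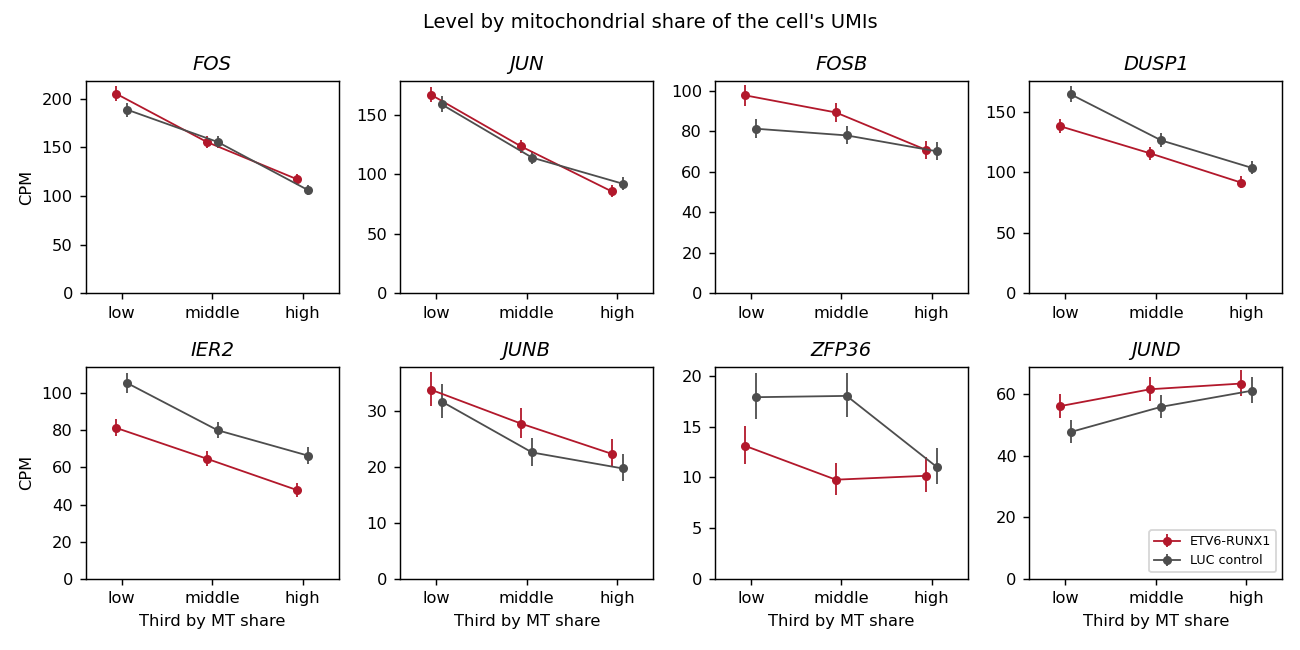
CPM of each measured member in kept cells split into tertiles by mitochondrial share, with 95% counting intervals, in the ETV6-RUNX1 (red) and LUC control (grey) library; each axis starts at 0. JUN has 166.9 CPM in the low and 85.5 CPM in the high tertile with ETV6-RUNX1, and JUND has 56.1 and 63.4 CPM.

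The genes around the circuit were taken as lists, each counted whole, with up to 3 measured genes of largest ratio named. They held 62 measured genes, of which 0 passed 1.5-fold upward and 1 downward, beside 0.185% and 0.655% of all measured genes. SPRY1, a feedback inhibitor of receptor tyrosine kinase signalling, had 9.76 CPM with ETV6-RUNX1 and 16.6 CPM in the LUC control library, a log2 ratio of -0.77 (-0.94 to -0.59). It reached the floor of 10 CPM only in the LUC control library, and a gene measured through 1 library alone is always higher there. It was 1 of 2 measured genes among 13 MAP kinase phosphatases and feedback inhibitors, and DUSP6, the ERK phosphatase, had -0.04.

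Upstream, 13 of 20 kinases of the ERK, JNK and p38 cascades were measured, with a median of -0.03, and none passed 1.5-fold in either direction. The largest ratios were those of ARAF (-0.17) and MAP2K3 (-0.13). Of 12 factors that act at immediate-early promoters (SRF, its partners and the CREB group) 7 were measured, with a median of 0.03. The acetyltransferase gene EP300 had 0.34 (12.7 and 10.0 CPM), CREM -0.28 and ATF1 -0.24. CREM (9.13 and 11.1 CPM) reached the floor only in the LUC control library. Both CREM and ATF1 encode CREB-family proteins, which bind the TGACG core.

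Other AP-1 relatives were scarce. Of 12 genes 4 were measured, ATF3, ATF2, MAFG and ATF7, at 10.1 to 19.3 CPM, with a median of 0.03 and ratios between -0.07 and 0.05. None of the 5 other EGR family and NAB corepressor genes was measured. In the KLF list 2 of 15 were, KLF13 (0.09) and KLF6 (-0.08). KLF13 (10.6 and 9.96 CPM) reached the floor only with ETV6-RUNX1.

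For ZFP36, 13 of 15 relatives and deadenylase genes were measured, with a median of -0.02. Its paralogs ZFP36L1 (57.9 and 62.2 CPM, -0.10) and ZFP36L2 (28.0 and 29.9 CPM, -0.09) were both more abundant than ZFP36 itself. The largest ratios of that list were those of the deadenylase subunit gene PAN3 (0.23), ELAVL1 (-0.11), whose protein stabilizes AU-rich messages, and CNOT11 (-0.11). PAN3 (11.3 and 9.63 CPM) reached the floor only with ETV6-RUNX1.

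Of 35 other immediate-early and delayed early genes 11 were measured, 5 with a ratio above 0 (36.2% over all measured genes) and 6 below, with a median of -0.01. ID2, an inhibitor of E proteins, had -0.41 (10.2 and 13.5 CPM), MYC -0.38 (104 and 135 CPM) and the antiproliferative gene BTG1 0.18 (140 and 123 CPM). Of 15 heat-shock genes 10 were measured, with a median of -0.09. HSPA8 (-0.28), DNAJA1 (-0.18) and HSPD1 (-0.15) had the largest ratios, and HSP90AA1 was the heat-shock gene most like the members across cells (r with their sum 0.15 and 0.16).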

How the data were processed

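For 2 libraries the authors deposited UMI counts, unnormalized, for each gene in each barcode. The submitters' processing notes name Cell Ranger 3.0.2 and the build hg19, and further settings, strand among them, are not given in the sources used here. Kept barcodes had at least 1000 genes and at most 10% MT UMIs. Scrublet marked 14 ETV6-RUNX1 and 16 LUC control cells as doublets (0.618% and 0.856%), and these were left in. UMIs were summed over kept cells and divided by the library total (CPM). Log2 ratios carry exact 95% intervals for a ratio of 2 Poisson counts, and shares carry exact Clopper-Pearson intervals. Cells are not replicates and there is 1 library per construct, so no p-value was computed. Cells were thinned once to 8700 UMIs for shares, overdispersion, r (pseudocount of 1 UMI) and phases (scanpy 1.11.5, control genes detected in at least 3 thinned cells). Levels by phase used unthinned UMIs. Levels in edgeR's TMM scaling (version 4.0.16) were an alternative. Scripts were checked on simulated data. The members and lists were chosen with earlier results of these data known. Named were all members, up to 3 measured genes of each list by absolute log2 ratio, the 10 measured non-members with the highest r with the summed members in the lower of the 2 libraries, and each member's nearest genes by r. ATF7, ZFP36L1 and ZFP36L2 fall outside that rule and were chosen after their values were seen. Some listed genes are not reported here. Gene names were those of the files. Promoter coordinates are GRCh38.p14 and were not used to count.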

Additional observations from a re-analysis of the deposited data

How the results depend on the processing

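Summed over each library, no measured member passed 1.5-fold in either direction under any other scaling, cell filter or depth. The exception was KLF2, which made 1 lower member with the floor at 1 CPM. Within subsets of cells, ZFP36 passed 1.5-fold downward in the lowest tertile of depth (-0.69) and the middle tertile of MT share (-0.88). IER2 and ZFP36 did so in cells called G1. The summed log2 ratio changed sign under other scalings. It was 0.0151 by TMM, 0.0185 by the median of ratios and 0.0213 by totals free of ribosomal protein and MT genes. These scalings shift every ratio between the libraries up by 0.039 to 0.046. The log2 ratio of G2/M over G1 kept its sign but not its size. With ETV6-RUNX1 it was 0.473 with phases called without thinning, 0.497 in cells more than 0.05 from a threshold, 0.519 with control genes from all genes and 0.239 with totals free of ribosomal protein and MT genes. In the LUC control library the same 4 settings gave 0.419, 0.461, 0.556 and 0.175, thinned UMIs gave 0.402, and the cells at the outer ends of the scores gave 0.127. In that last setting the median measured gene had 0.118. The cause of these changes in size was not tested. The main set of control genes for the phase scores, the other control-gene and outer-end settings, and the subsets of cells used for co-variation, were chosen after seeing the data. The median member r was 0.258 in the LUC control library with unthinned counts per 10000 UMIs, and all others lay between 0.12 and 0.19 there and between 0.07 and 0.17 with ETV6-RUNX1. The share of cells with 5 or more members followed depth, at 8.73% and 9.28% at 5000 UMIs and 52.9% and 58.9% without thinning. Depth limits EGR1, KLF2 and ZFP36 most. No paired analysis was possible because each construct has 1 library.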

Other observations

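The barcodes left out of the analysis carried more member UMIs than the kept cells, counted per 1000000 UMIs outside MT genes. In the ETV6-RUNX1 library the 79 barcodes left out at or under 50% MT had 1397 member UMIs in that count (1227 to 1583), and the 157 barcodes above 50% MT had 1105 (740 to 1588, from 29 UMIs), where kept cells had 692. In the LUC control library the values were 1443 (1305 to 1592) in 128 barcodes and 1469 (1029 to 2034, from 36 UMIs) in 205 barcodes, where kept cells had 703. JUN had 336 in the first set and 132 in kept cells with ETV6-RUNX1, and 480 and 127 in the LUC control library. Within kept cells the summed level ran the other way, lower at a higher MT share.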
